A study of Homo sapiens with 3 samples.

Results

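The matrix metalloproteinases (MMPs), the ADAMTS proteases and the tissue inhibitors of metalloproteinases (TIMPs) were read in MCF10A cells, an immortalized and non-tumorigenic line of human breast epithelium. The members are the protein-coding genes whose symbol in GENCODE release 44 is MMP with a number (and in 1 case a final letter), ADAMTS with a number, or TIMP1 to TIMP4, and ADAMTS-like genes were not counted. These rules gave 46 of the 62754 genes in the deposited table, with 23 MMPs, 19 ADAMTS genes and 4 TIMPs. RNA-seq was measured in 3 replicates of 1 condition, so no comparison between groups was possible. All replicates carried the empty Retro-X Tet-One retroviral vector, which holds no transgene, were selected with puromycin, and were collected with no doxycycline and no other treatment. RNA depleted of ribosomal RNA was sequenced. All replicates were treated as 1 batch, as their titles and library names give no batch. The labels do not say whether the replicates came from separate cultures, so the spread between them may be technical.

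MMPs and ADAMTS proteases are zinc enzymes that cut proteins of the extracellular matrix and of the cell surface. Both are made as inactive precursors, which other proteases such as furin and plasmin open. MMPs are either secreted or held at the cell surface, and ADAMTS proteases are secreted and bind the matrix through thrombospondin repeats. TIMPs block the active site of MMPs, and TIMP3 also blocks several ADAM and ADAMTS proteases. In the breast these genes are known from the growth and regression of the epithelial ducts, where much of the MMP and ADAMTS RNA comes from the stroma around them.

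The values are TPM, transcripts per 1000000, in which reads are divided by gene length, so that levels of different genes in the same replicate can be ordered. The deposited values match the length of the longest annotated transcript, which can differ from that of the transcript expressed. For TIMP1 this length was 1091 bases, where its canonical transcript has 769. Any order or ratio of genes given here holds for the lengths used. Reads were recovered from TPM and annotated gene length, which gave totals of 15273329, 15446347 and 11166546 where the smallest step is taken as 1 read. Replicate 3 stood apart, since RN7SL1, a short non-coding RNA, took between 4.93% and 15.1% of all TPM with the highest share in replicate 3. The log2 ratio of TPM in replicate 3 to that in replicates 1 and 2 had medians of -0.25 and -0.23 over protein-coding genes at or above 10 TPM, and of -0.17 and -0.28 over the 15 members at or above 1 TPM. All 7 markers of basal breast epithelium were at or above 1 TPM, with KRT5 at 6612 ± 890 TPM (SD, n = 3). Of 7 fibroblast markers, 2 were above 1 TPM (DCN at 9.05 and COL1A1 at 4.96 TPM), while COL1A2 and LUM had 0 reads in every replicate. The summed level of the fibroblast markers lay between 13.6 and 14.8 TPM. In the leukocyte list of 7 genes it lay between 5.33 and 7.81 TPM, with 2 genes above 1 TPM (CSF1R and CD14) and PTPRC, the defining marker, at a mean of 0.0728 TPM. For the 5 endothelial markers it lay between 1.94 and 2.36 TPM, with 1 gene above 1 TPM (PECAM1) and CDH5 at 0 reads. Among the 7 luminal markers, 4 were above 1 TPM (KRT18, KRT8, GATA3 and FOXA1), and the summed level lay between 479 and 577 TPM. Most of this sum was KRT18 at 413 and KRT8 at 118 TPM, while KRT19, PGR and ESR1 had 1, 1 and 3 reads in all. The part of other cell types in the levels given here was not tested.

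Most of the 46 genes were low, and a few held most of the RNA, with TIMP1 at 79.9%, 78.7% and 81.3% of the summed TPM of all members in replicates 1, 2 and 3. By their mean, 15 of 46 members (32.6%) were at or above 1 TPM, the cutoff of the study's methods for an expressed gene, where the share of all 20046 protein-coding genes was 56.7%. These 15 were 8 of 23 MMPs, 4 of 19 ADAMTS genes and 3 of 4 TIMPs. A further 21 members had reads but lay below 1 TPM, and 10 members (21.7%) had 0 reads in every replicate, against 26.2% of protein-coding genes. The median of the members' means was 0.230 TPM, and that of all protein-coding genes was 3.75 TPM. These samples are bulk RNA, in which fewer cells that express a gene and less RNA in each cell cannot be told apart. The count of 15 was the same without replicate 3 and was 14 without replicate 2.

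**Figure D1:**
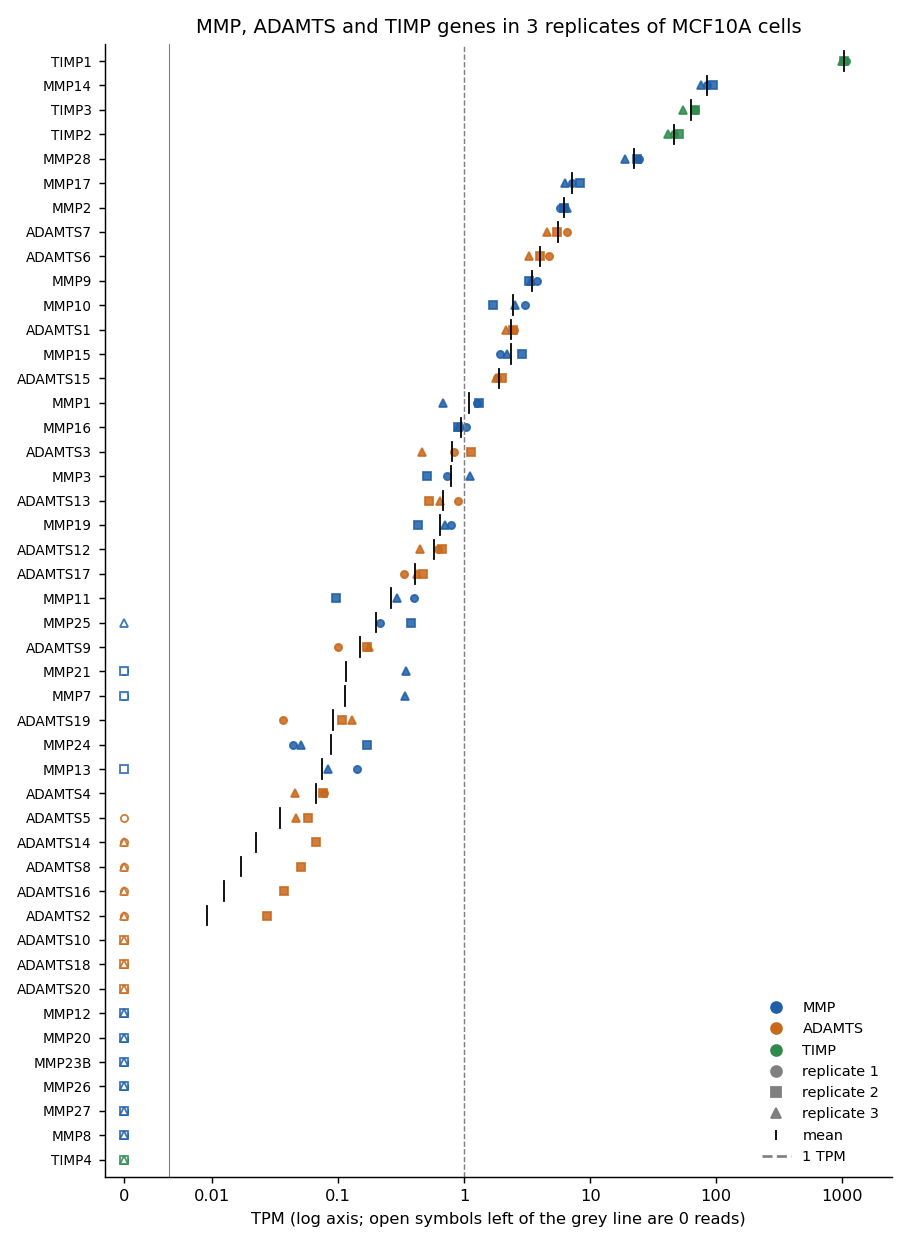
TPM of the 46 genes in each of 3 replicates on a log axis, ordered by the mean (black bars), with 0 reads as open symbols at the left. TIMP1 lies near 1000 TPM, MMP14, TIMP3, TIMP2 and MMP28 between 18.8 and 93.4 TPM, and every other gene below 10 TPM.

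**Figure D2:**
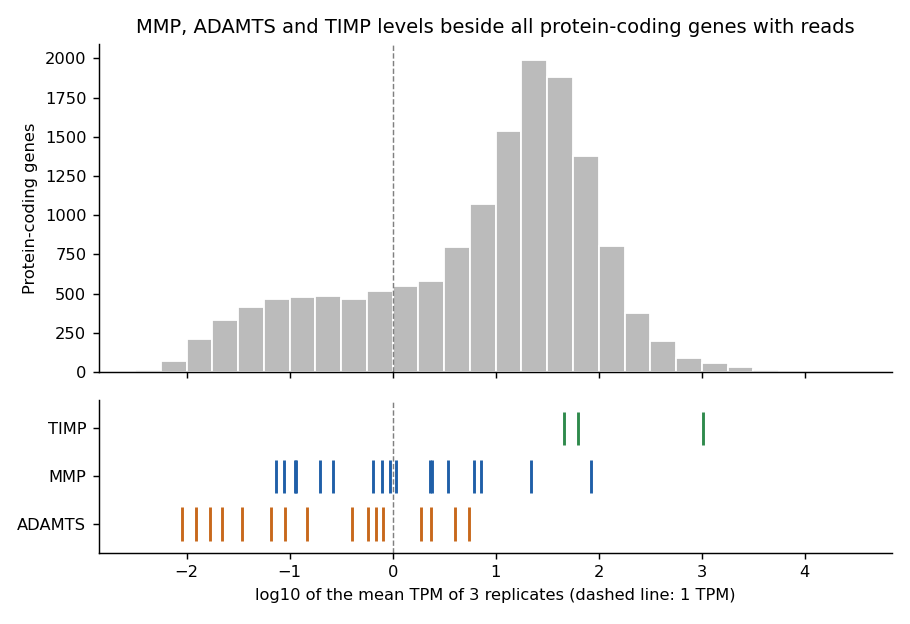
Histogram of the mean TPM of protein-coding genes with reads (upper panel, log10 scale) above the means of the TIMP, MMP and ADAMTS genes with reads (lower panel, 1 line per gene). The 3 TIMPs with reads lie right of 1 TPM, while 9 of 17 MMPs and 12 of 16 ADAMTS genes with reads lie left of it.

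The inhibitors were the highest of the 3 families. TIMP1 (ENSG00000102265, chromosome X of hg38 from 47582408 to 47586789), a secreted inhibitor of most soluble MMPs, was measured at 1064, 1024 and 998 TPM in replicates 1, 2 and 3, or 1029 ± 33.2 TPM (SD, n = 3). It ranked at place 103 among protein-coding genes, and its SD was 3.23% of the mean. TIMP3 (ENSG00000100234, chromosome 22 from 32801705 to 32863041), which stays bound to the matrix, had 67.8, 67.3 and 54.9 TPM, with replicate 3 the lowest. TIMP2 (ENSG00000035862, chromosome 17 from 78852977 to 78925387) had 46.1, 50.3 and 41.7 TPM. TIMP2 has a double role, since it blocks MMP14 and, bound to it, also holds the MMP2 precursor for activation. TIMP4 (ENSG00000157150, chromosome 3) had 0 reads in all replicates, and 3 reads over all replicates would be 0.166 TPM. TIMP1 made up 90.3%, 89.7% and 91.2% of the TIMP total, and the ratio of TIMP1 to TIMP3 was 16.4 ± 1.6 (SD, n = 3). TIMP1, TIMP3 and TIMP4 share a position that the choice of genes did not use, as each lies on the opposite strand within a synapsin gene. The host genes SYN1, SYN3 and SYN2 had means of 0.273, 1.80 and 0.0492 TPM.

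Among the MMPs, a membrane-bound protease held most of the RNA. MMP14 (ENSG00000157227, chromosome 14 from 22836560 to 22849041), also called MT1-MMP, cuts collagen at the cell surface and activates MMP2. Its values were 84.6, 93.4 and 75.4 TPM, or 84.5 ± 9.0 TPM (SD, n = 3), with replicate 2 the highest. It made up 62.6%, 65.4% and 63.0% of the summed TPM of all 23 MMPs, which was 133 ± 11.8 TPM (SD, n = 3). The other membrane-type genes were far lower. MMP17 (ENSG00000198598, chromosome 12 from 131828393 to 131851783), which a lipid anchor holds at the surface, had 7.11, 8.23 and 6.32 TPM. MMP15 (ENSG00000102996, chromosome 16 from 58025754 to 58046901), the closest relative of MMP14, had 1.92, 2.87 and 2.20 TPM. MMP14 and these relatives were thus set apart in every replicate. MMP16 had 1.04, 0.896 and 0.889 TPM from 165 reads in all, MMP25 had 14 reads and MMP24 had 6 reads in all replicates together. Part of the exons of MMP24 and MMP25 is overlapped on the opposite strand (22.1% by MMP24OS with another transcript, and 30.5% by MMP25-AS1), and the use of strand in counting is not given in the sources used here. MMP24OS itself was at 24.3 ± 4.30 TPM (SD, n = 3), while MMP24 was at 0.0879 TPM.

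MMP28 was the highest secreted protease among the MMP and ADAMTS genes. Known as epilysin, it is a protease of skin and other epithelia that carries a furin site in its precursor. MMP28 (ENSG00000271447, chromosome 17 from 35756249 to 35795707) was measured at 24.4, 23.3 and 18.8 TPM, or 22.2 ± 2.95 TPM (SD, n = 3), and made up between 94.8% and 98.2% of the summed level of the 7 MMPs outside the named subgroups. Both gelatinases, which cut denatured collagen and the type IV collagen of basement membranes, were above 1 TPM. MMP2 (ENSG00000087245, chromosome 16 from 55389700 to 55506691) had 5.80, 6.17 and 6.5 TPM, and MMP9 (ENSG00000100985, chromosome 20 from 46008908 to 46016561) had 3.76, 3.26 and 3.36 TPM. MMP2 was above MMP9 in every replicate, with no overlap between their ranges. MMP2 is the 1 member whose exons overlap those of a gene of the same strand, over 4.95% of its canonical transcript. For MMP9, 18.4% of the exon bases lie opposite SLC12A5-AS1, which had 0 reads.

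The levels of the genes that act together on MMP2 can be set side by side. MMP14 was 1.83 ± 0.0243 times TIMP2 and 13.8 ± 1.90 times MMP2 (SD, n = 3 each). The ratio of MMP14 to TIMP2 lay between 1.81 and 1.86, so that it varied less between replicates than either level. That of MMP14 to MMP2 lay between 11.6 and 15.1. Such ratios cancel any shift that all genes of a replicate share, and a link between the genes was not tested. The counting error of the ratios was not computed, and the pairs were chosen after values were seen. The narrow range of MMP14 to TIMP2 is thus not a result about these genes. The summed TPM of the TIMPs was 8.71, 8.0 and 9.15 times that of the MMPs in replicates 1, 2 and 3, or 8.62 ± 0.582 (SD, n = 3), and 8.36 without replicate 3. This ratio rests on the highest gene of each family, since without TIMP1 and MMP14 it was 2.27. Against the ADAMTS genes, whose sum was 16.6 ± 2.27 TPM (SD, n = 3), the TIMP sum was 69.2 ± 7.47 times that level (SD, n = 3). These are ratios of RNA per length, which depend on the lengths used, and not of protein.

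On chromosome 11, 9 MMP genes lie in 1 cluster of 435 kb, from 102520508 to 102955732 in hg38, all on the same strand. The cluster holds collagenases (MMP1, MMP8, MMP13), stromelysins (MMP3, MMP10), matrilysin (MMP7), the macrophage elastase MMP12, the enamel protease MMP20 and MMP27. Reads fell on a short stretch of it. MMP10 (ENSG00000166670, from 102770502 to 102780628), a stromelysin that also activates collagenases, had 3.04, 1.69 and 2.55 TPM from 28, 16 and 20 reads. Its neighbour MMP1 (ENSG00000196611, from 102789401 to 102798160), the main collagenase of connective tissue, had 1.26, 1.32 and 0.682 TPM from 13, 14 and 6 reads. MMP3 (ENSG00000149968, from 102835801 to 102843609), the other stromelysin, had 0.733, 0.509 and 1.11 TPM from 7, 5 and 9 reads. These 3 neighbours held 118 of the 123 reads on the cluster. MMP7 and MMP13 had 2 and 3 reads in all, and MMP8, MMP12, MMP20 and MMP27 had 0 reads in every replicate. By pooled reads, MMP10 was at 2.41 TPM with an exact Poisson 95% interval from 1.86 to 3.08, MMP1 at 1.11 (0.763 to 1.56) and MMP3 at 0.764 (0.473 to 1.17). These intervals cover counting error only, and those of MMP1 and MMP3 include 1 TPM.

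**Figure D3:**
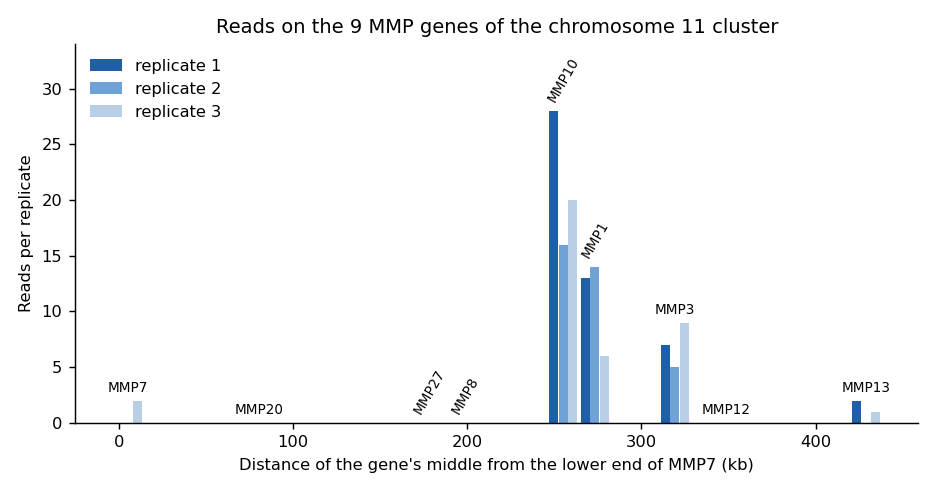
Reads per replicate (bars from 0) on the 9 MMP genes of the chromosome 11 cluster, placed by distance in kb. MMP10, MMP1 and MMP3 hold 118 of 123 reads, and 4 genes have no bar in any replicate.

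The ADAMTS genes were the lowest family, with 4 of 19 at or above 1 TPM. ADAMTS7 (ENSG00000136378, chromosome 15 from 78759206 to 78811464), which cuts the cartilage protein COMP and thrombospondin 1, had 6.56, 5.47 and 4.5 TPM, with replicate 3 the lowest. The annotation holds pseudogene copies of ADAMTS7, to which counting could assign part of its reads. ADAMTS7P3 and ADAMTS7P4 had 9 and 2 reads in all and ADAMTS7P1 had 0, beside 464 reads on ADAMTS7. ADAMTS6 (ENSG00000049192, chromosome 5 from 65148738 to 65481920), which acts on microfibrils, had 4.71, 3.98 and 3.28 TPM. ADAMTS1 (ENSG00000154734, chromosome 21 from 26835755 to 26845409) and ADAMTS15 (ENSG00000166106, chromosome 11 from 130448645 to 130476645) both cut the proteoglycan versican. ADAMTS1 had 2.48, 2.42 and 2.15 TPM, and ADAMTS15 had 1.83, 2.0 and 1.78 TPM. ADAMTS1 was higher in every replicate, and the ranges of both genes did not overlap. By pooled reads their exact Poisson 95% intervals did overlap, at 2.05 to 2.70 TPM for ADAMTS1 and 1.61 to 2.18 TPM for ADAMTS15. Each of these genes has another ADAMTS gene as its neighbour, and in both pairs the neighbour was near 0. ADAMTS5, 72.5 kb from ADAMTS1, had 5 reads in all, and ADAMTS8, 20.0 kb from ADAMTS15 on the opposite strand, had 1 read in all.

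The other 15 ADAMTS genes had means below 1 TPM. Among the procollagen N-proteinases, which trim the ends of newly made collagen, ADAMTS3 had 0.823, 1.13 and 0.466 TPM, while ADAMTS14 and ADAMTS2 had 2 reads and 1 read in all. The aggrecanases ADAMTS4 and ADAMTS5 had 10 and 5 reads in all, and ADAMTS9, a versican protease, had 17. ADAMTS13, the protease of von Willebrand factor, had 0.890, 0.527 and 0.636 TPM. ADAMTS12, the closest relative of ADAMTS7, had 0.621, 0.669 and 0.443 TPM and was below ADAMTS7 in every replicate. ADAMTS17 was at 0.408 ± 0.0701 TPM (SD, n = 3), ADAMTS19 and ADAMTS16 had 7 reads and 1 read in all, and ADAMTS10, ADAMTS18 and ADAMTS20 had 0 reads in every replicate.

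The remaining MMPs were below 1 TPM. MMP19 had 0.791, 0.433 and 0.698 TPM, and 25.4% of its exon bases lie opposite TMEM198B, which was at 6.81 TPM. MMP11, a stromelysin that furin activates, had 8, 2 and 5 reads, and MMP21, a gene of left-right patterning, had 0, 0 and 3 reads. MMP23B and MMP26 had 0 reads in every replicate. MMP23B has a near copy, the pseudogene MMP23A with 2 reads in all, so that its reading of 0 was not taken as a lack of RNA. For the 10 members with 0 reads, 3 reads over all replicates would be between 0.0313 and 0.166 TPM, and 3 reads in 1 replicate up to 0.563 TPM. A level below these values can leave 0 reads, so 0 reads do not show a lack of RNA.

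Promoter sequences are shown to set the leading genes beside the genes of the chromosome 11 cluster. RefSeq windows on GRCh38.p14, from 250 bases before to 50 bases after the annotated start, were given for 27 of the 46 members. Because RefSeq gives ADAMTS10 more than 1 start, there were 28 windows, and 19 members had none. Among those without a window were TIMP2, MMP28, MMP17, MMP2, MMP9, ADAMTS1, ADAMTS15 and MMP1, all at or above 1 TPM, and also MMP3. For the highest members with a window and for all 5 cluster genes with one, the 150 bases before the start are shown on the gene's own strand, 5′ to 3′. Capitals mark matches on either strand. The AP-1 motif was searched for as TGANTCA. For the TATA box the letters were TATAAA. The GC box was taken as GGGCGG, and no match overlaps another in these stretches. The RefSeq start can differ from that of GENCODE, as it does for MMP8.
TIMP1: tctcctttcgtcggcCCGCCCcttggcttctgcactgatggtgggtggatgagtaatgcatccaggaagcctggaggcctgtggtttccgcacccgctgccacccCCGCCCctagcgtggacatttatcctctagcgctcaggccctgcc
MMP14: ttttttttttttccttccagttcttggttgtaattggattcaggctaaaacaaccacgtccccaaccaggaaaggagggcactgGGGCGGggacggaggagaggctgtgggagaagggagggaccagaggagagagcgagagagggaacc
TIMP3: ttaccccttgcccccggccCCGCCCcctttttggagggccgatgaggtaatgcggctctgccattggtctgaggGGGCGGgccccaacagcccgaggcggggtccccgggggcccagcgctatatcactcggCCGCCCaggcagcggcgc
MMP10: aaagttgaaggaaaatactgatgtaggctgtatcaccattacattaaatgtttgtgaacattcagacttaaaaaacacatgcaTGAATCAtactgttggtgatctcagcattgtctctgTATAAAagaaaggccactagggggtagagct
MMP7: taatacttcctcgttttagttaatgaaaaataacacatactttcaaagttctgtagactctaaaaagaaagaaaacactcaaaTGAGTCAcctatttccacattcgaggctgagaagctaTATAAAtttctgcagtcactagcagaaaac
MMP20: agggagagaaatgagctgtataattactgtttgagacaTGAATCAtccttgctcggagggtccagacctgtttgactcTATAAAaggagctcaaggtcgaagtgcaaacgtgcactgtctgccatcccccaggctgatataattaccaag
MMP8: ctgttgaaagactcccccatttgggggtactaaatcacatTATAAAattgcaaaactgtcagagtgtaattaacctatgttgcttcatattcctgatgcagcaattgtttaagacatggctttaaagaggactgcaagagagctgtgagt
MMP27: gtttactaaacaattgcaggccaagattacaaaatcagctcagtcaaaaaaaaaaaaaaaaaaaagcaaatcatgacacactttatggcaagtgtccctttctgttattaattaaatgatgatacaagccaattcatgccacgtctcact

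The stretches lie at chrX:47582286-47582435 (+) for TIMP1, chr14:22836435-22836584 (+) for MMP14, chr22:32801555-32801704 (+) for TIMP3, chr11:102780629-102780778 (-) for MMP10, chr11:102530748-102530897 (-) for MMP7, chr11:102625333-102625482 (-) for MMP20, chr11:102724955-102725104 (-) for MMP8 and chr11:102705770-102705919 (-) for MMP27. GC boxes stood in TIMP1, MMP14 and TIMP3 and in no window of the cluster. Outside the cluster, 19 of 23 member windows held a GC box, high and low genes alike. These included ADAMTS18, ADAMTS20, MMP23B and TIMP4 with 0 reads, while MMP26, also with 0 reads, held none. MMP10 and MMP7 both held an AP-1 match that begins at position -67, counted back from the start, and a TATA box that begins at -31 and -30. MMP20 held an AP-1 match at -112 and a TATA box at -72. Over the whole windows, AP-1 letters were found in 4 of 28 member windows (14.3%) and in 7.71% of all 35116 RefSeq windows. Of these 4 windows, 3 lie in the cluster and the other one belongs to ADAMTS12. TATA letters were found in 25% of member windows and 11.5% of all windows, and GC boxes in 67.9% and 45%. Both AP-1 and TATA letters were held by 3 member windows, all in the cluster, and by 1.31% of all windows. Such matches describe letters and are not binding sites.

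CpG dinucleotides were few in the cluster, while both high and low members were found with few and with many. The 5 cluster windows held between 2 and 4 CpG dinucleotides, and the other 23 member windows between 0 and 47 with a median of 26, where the median of all RefSeq windows was 14. MMP10, at 2.43 TPM, held 2 CpG, as did MMP8 and MMP27 with 0 reads. ADAMTS2 and ADAMTS14, with 1 read and 2 reads in all, held 47 and 42 CpG, and TIMP1, the highest member, held 16. MMP14, at 84.5 TPM, held 10 CpG, and TIMP3, at 63.4 TPM, held 31. The same AP-1 and TATA letters were thus found both in MMP10 and in genes of the cluster with few or no reads. MMP1 and MMP3, which with MMP10 held most reads of the cluster, had no window, so this contrast rests on MMP10 alone.

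**Figure D4:**
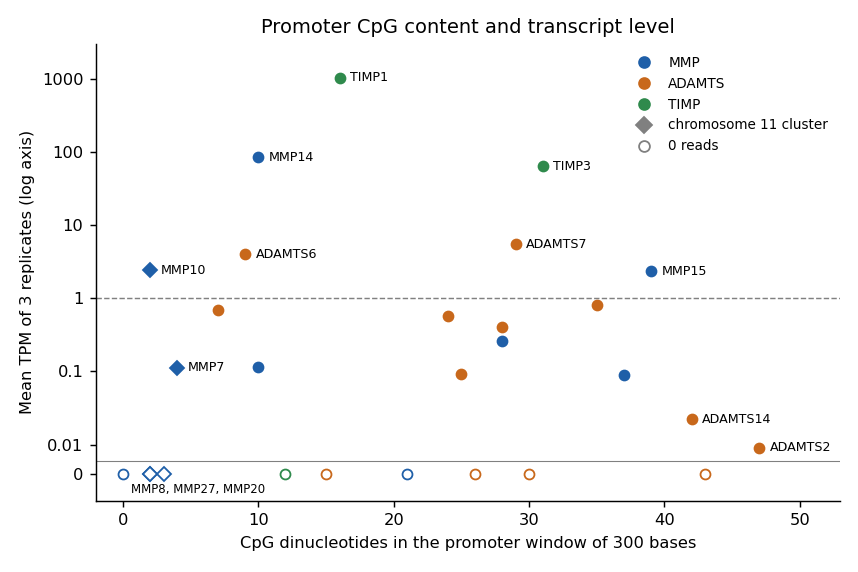
Number of CpG dinucleotides in the 300 bases of each of 28 promoter windows against the mean TPM of the gene on a log axis, with 0 reads as open symbols at the bottom and cluster genes as diamonds. MMP10 stands above 1 TPM with 2 CpG, while ADAMTS2 and ADAMTS14 lie below 0.1 TPM with 47 and 42 CpG.

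Ordered by the mean, the 15 members at or above 1 TPM fell into a resolved upper part and a lower part with ties. The ranges of the 3 replicates did not overlap for 7 of 14 neighbouring pairs. The same gene lengths enter all 3 replicates, so these ranges do not cover an error in length. TIMP1, MMP14, TIMP3, TIMP2, MMP28 and MMP17 were set apart from each other in this order in every replicate, with steps of 12.2, 1.33, 1.38, 2.08 and 3.07 times between means. MMP17, MMP2 and ADAMTS7 overlapped, as did ADAMTS7 with ADAMTS6 and ADAMTS6 with MMP9. MMP9 was above MMP10 with no overlap of the replicates. Their exact Poisson 95% intervals by pooled reads did overlap, at 2.87 to 4.13 TPM for MMP9 and 1.86 to 3.08 TPM for MMP10. MMP10, ADAMTS1, MMP15 and ADAMTS15 overlapped each with the next, and ADAMTS15 was above MMP1 with no overlap. ADAMTS1 and MMP15, at means of 2.35 and 2.33 TPM, were in that order in 1 of 3 replicates.

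The spread between replicates was compared with that of other genes. The SD of log2(TPM + 1), on which no test was run, had a median of 0.17 over these 15 members, from 0.05 for TIMP1 to 0.30 for MMP10, and of 0.16 over all protein-coding genes at or above 1 TPM. Without replicate 3 the members' median was 0.0875. In TPM, 11 of the 15 members were lowest in replicate 3, where protein-coding genes at or above 10 TPM were also lower by their median ratios. The count was 5 of 15 with replicates scaled to the median ratio of genes at or above 10 TPM. By construction this scaling removes a shift that these genes share. Its lowest and highest factors lie 0.25 apart on the log2 scale. The share over all genes was not counted, so neither count is a result about the members. To see which members differed by more than counting error, reads were compared with equal TPM in all replicates by chi-square, with p adjusted by Benjamini-Hochberg over all 15802 genes with at least 15 reads. Of 24 members tested, 8 differed at an adjusted p under 0.05 (33.3%), against 54.3% of all genes tested and 61.3% of the protein-coding ones. They were TIMP1, TIMP2, TIMP3, MMP14, MMP28, ADAMTS7, ADAMTS6 and ADAMTS3. The highest and lowest replicate of these genes were between 1.07-fold and 2.42-fold apart. With the median scaling, 2 of 24 differed, against 31.2% of genes. These were MMP14 (chi-square test, adjusted p = 0.017) and TIMP1 (chi-square test, adjusted p = 3.72e-11). TIMP1 turned from lowest to highest in replicate 3, at 999.9, 972 and 1115 scaled TPM. Without replicate 3, MMP14 alone differed (chi-square test, adjusted p = 0.0169), with 84.6 and 93.4 TPM in replicates 1 and 2, and the share of all genes tested that differed was then 21.3%. This test covers counting error, and genes with more reads are called more often.

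Near the cutoff, 4 members (8.70%) had replicates on both sides of 1 TPM, where the share of protein-coding genes was 2.84%. Both shares depend on how many genes have means near 1 TPM. Genes of like level were not compared, so the difference is not a result about the members. The 4 members were MMP1, with replicates 1 and 2 above, MMP16, with replicate 1 above, ADAMTS3, with replicate 2 above, and MMP3, with replicate 3 above. By the mean, MMP1 was called at or above 1 TPM and the other 3 below. MMP1 fell to a mean of 0.970 TPM without replicate 2, and the pooled reads of MMP16 gave 0.942 TPM with an exact Poisson 95% interval from 0.804 to 1.10.

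Genes that act with these proteases were read from 9 lists, chosen by function. Of all protein-coding genes 56.7% were at or above 1 TPM, and the counts of the lists were not tested against that share. Of 14 activators, 7 were at or above 1 TPM, led by PLAU at 144 ± 11.8, FURIN at 92.6 ± 12.1 and ST14 at 70.6 ± 9.49 TPM (SD, n = 3 each). PLAU makes plasmin from plasminogen, FURIN opens the precursors of membrane-type MMPs, and ST14 is matriptase, a membrane serine protease. PLAT, PCSK6, PCSK7 and PLAUR lay between 21.1 and 35.1 TPM, and PLG, which encodes plasminogen itself, had 0 reads, as did KLK6, KLK7, HPN and TMPRSS2. Of 10 other inhibitors and clearance genes, 6 were at or above 1 TPM. SPOCK1, a secreted proteoglycan, was at 59.3 ± 7.27 TPM and LRP1, the receptor that clears protease complexes, at 19.0 ± 1.81 TPM (SD, n = 3 each). PCOLCE2, RECK and PCOLCE were at 4.72, 2.72 and 1.52 TPM. RECK is a membrane-anchored MMP inhibitor and was measured at 2.55, 3.36 and 2.23 TPM, below TIMP1, TIMP2 and TIMP3 in every replicate. Of 14 surface partners, 12 were at or above 1 TPM, led by SDC1, CAV1 and ITGB1 with means between 520 and 762 TPM, while LCN2, the carrier of MMP9, and ITGB3 had 2 and 4 reads in all.

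The ADAM proteases, most of which sit in the cell membrane, had a median of the means of 4.85 TPM. That of the 46 members was 0.230 TPM, and that of all protein-coding genes was 3.75 TPM. Of 13 ADAM proteases, 7 were at or above 1 TPM, with ADAM15 at 213 ± 26.6, ADAM9 at 96.6 ± 6.30 and ADAM10 at 34.7 ± 4.53 TPM (SD, n = 3 each), and ADAM28, ADAM30, ADAM33 and ADAMDEC1 had 0 reads. ADAM10 and ADAM17 are the main sheddases of growth factors and receptors, and ADAM17 was at 24.4 ± 1.59 TPM (SD, n = 3). In the astacin list, BMP1 and TLL1, which trim the other end of procollagen, were at 29.6 ± 4.55 and 16.2 ± 1.85 TPM (SD, n = 3 each). TLL2 was at 0.138 TPM and MEP1B had 0 reads, so 2 of 6 were at or above 1 TPM. Of 7 ADAMTS-like genes, whose proteins lack the protease domain, THSD4, ADAMTSL5 and ADAMTSL4 were at 14.7, 5.23 and 4.5 TPM, and ADAMTSL1 and ADAMTSL2 had 0 reads. THSD4 was thus above every ADAMTS protease in each replicate.

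Of 16 matrix substrates of MMPs, 12 were at or above 1 TPM. They included LAMB3, a chain of the laminin of epithelial basement membranes, at 664 ± 86.7 TPM and FN1, fibronectin, at 601 ± 53.6 TPM (SD, n = 3 each), whereas COL1A2 and ELN had 0 reads. Of 13 substrates of ADAMTS proteases, 5 were at or above 1 TPM. THBS1, thrombospondin 1, was at 732 ± 78.8 TPM, FBN2, a fibrillin, at 106 ± 15.6 TPM and VCAN, versican, at 38.4 ± 3.89 TPM (SD, n = 3 each), with FBN1 at 7.85 and COL1A1 at 4.96 TPM. The cartilage genes ACAN and COMP and the brain proteoglycan NCAN had 0 reads. Of 20 transcription factors known to act on MMP genes, 17 were at or above 1 TPM, led by CEBPB at 171 ± 26.6, FOSL1 at 106 ± 24.0 and JUNB at 82.3 ± 11.8 TPM (SD, n = 3 each). FOSL1 and JUNB are subunits of AP-1. Those below 1 TPM were ATF3 at 0.864, EHF at 0.236 and ELF3 at 0.0403 TPM.

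**Figure D5:**
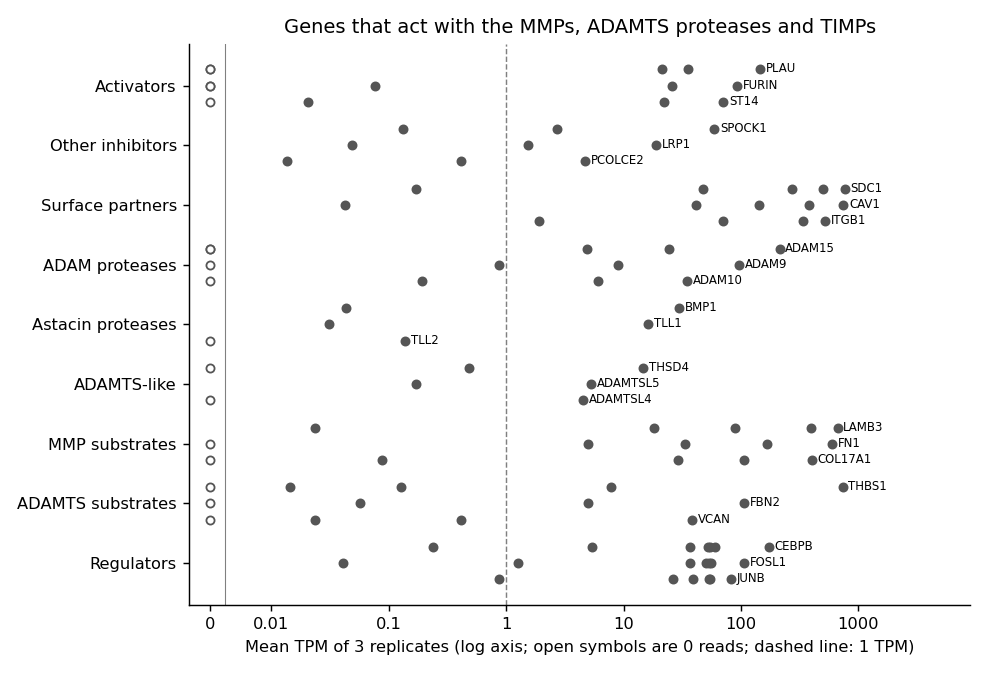
Mean TPM of the genes in 9 lists on a log axis, 1 row per list and 1 point per gene, with 0 reads as open symbols and the 3 highest drawn genes of each list named. Surface partners and regulators lie mostly right of 1 TPM, with 12 of 14 and 17 of 20 genes.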

How the data were processed

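RNA-seq of 3 replicates of 1 condition was used, and replicates were matched to table columns by the library names in the labels. The authors made rRNA-depleted libraries from 300 ng of RNA. They aligned reads to hg38, and Seq2science did the counting. The submitters' processing notes also name STAR, fastp and MultiQC, without versions. The authors deposited TPM values of 62754 genes, which sum to 1000000 in each replicate, and did not pool replicates. Strand use and annotation release are not given in the sources used here.

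TPM values were used as deposited. GENCODE release 44 gave the type, position and length of each gene, and 62700 of 62754 genes were matched by identifier. Reads were recovered as the product of TPM and the length of the longest transcript (with 1 base less per exon), in units of the smallest such product of a replicate. All values (100%) lay within 0.01 of a whole number. Members, lists and the rule for named genes were chosen with earlier results of these data known. The rule names every member, those with a mean of at least 1 TPM with their values, and from each list the 3 highest genes and those with 0 reads, except genes that are not reported here. The 4 genes with replicates on both sides of 1 TPM, the ratios, genomic neighbours, promoter letters and partner genes on the opposite strand were chosen after values were seen. Neighbours in the order were set apart where the ranges of their replicates did not overlap. Reads were compared by chi-square with Benjamini-Hochberg adjusted p, after the scripts were tested on simulated data. Scripts ran under Python 3.11.15 (pandas 2.3.3, numpy 2.4.6, scipy 1.17.1), and figures were drawn with matplotlib 3.10.9. Alternatives covered the cutoff, scaling, pseudocount, filters and leaving out each replicate.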

Additional observations from a re-analysis of the deposited data

How the results depend on the processing

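No paired analysis was possible because there is 1 condition. Of 46 members, 15 reached 1 TPM, and other settings gave counts between 13 (cutoff of 2 TPM) and 21 (cutoff of 0.5 TPM). The other settings gave 14 to 16, and leaving out 1 replicate gave 14 to 15. The number of members whose reads differed between replicates was 8, and 8 with at least 5 or at least 50 reads. It was 2 with the median-ratio scaling, and on leaving out a replicate it ranged from 1 (replicate 3 out) over 5 (replicate 1 out) to 6 (replicate 2 out). The share of all genes tested moved as well, from 54.3% to 44.6% and 63.7% with at least 5 and at least 50 reads, to 31.2% with the scaling, to 21.3% without replicate 3 and to 46.7% without replicate 1 or replicate 2. The cause was not tested. The ratio of the TIMP sum to the MMP sum was 8.62, between 8.36 and 8.93 when 1 replicate was left out, and 2.27 without TIMP1 and MMP14, which by construction removes the highest gene of each family. The median spread of 0.17 was 0.0747 with no filter on low values, since genes near 0 enter, 0.0909 with TPM scaled to protein-coding genes, and between 0.0875 and 0.187 when 1 replicate was left out. Of 90 values of single members under alternatives, 13 moved by more than 1 SD, all upward and all under a scaling that raises every gene of a replicate by the same factor. Depth limits genes below 1 TPM, of which 12 members had between 1 and 14 reads in all and were not tested.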
